A study of Mus musculus with 4 samples.

Results

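The microRNAs (miRNAs) of untreated N2a cells were examined as a pool: which families and genomic clusters supplied it, which arm of each precursor was kept, and which tissue miRNAs were missing. N2a is a line of proliferating mouse neuroblastoma cells that can be made to grow neurites. Members were the rows of the small RNA table with a mouse miRNA name and at least 20 reads in the untreated small RNA library. They numbered 531, of 946 mouse rows and 2280 rows in all. The series held 4 libraries, total RNA and small RNA from untreated N2a cells and from N2a cells given 300 µM manganese for 48 h, with 1 library in each group. The library titles decide which cells were untreated, since the treatment text is the same for each library, and the labels give the strain as C57BL/6 and the cells as mouse neuroblastoma cells. The treated libraries were not used. The small RNA library describes 1 culture of a cell line, so no value below has a replicate check and no test was possible.

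A miRNA is cut from a hairpin precursor in the nucleus by Drosha with Dgcr8, exported by exportin 5 and cut again by Dicer into a short duplex. An Argonaute protein then loads one strand, from the 5p arm or the 3p arm of the hairpin, and the other strand is mostly degraded. The loaded miRNA finds messenger RNAs through its seed, here bases 2 to 8 from the 5′ end, so miRNAs with a common seed are treated as a family. Many miRNA genes lie in clusters that are transcribed together, and some mature sequences are encoded by several gene copies.

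The sequences that the results turn on are given 5′ to 3′ from RefSeq (GRCm38.p6), with the seed in capitals. The first set holds abundant miRNAs of the pool from outside the X chromosome, as far as they are printed here, with miR-27a-3p for comparison, and within this set the seed is shared by miR-7a with miR-7b and by miR-27b with miR-27a.
miR-7a-5p: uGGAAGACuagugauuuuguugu
miR-7b-5p: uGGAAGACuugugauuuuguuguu
miR-21a-5p: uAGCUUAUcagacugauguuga
miR-218-5p: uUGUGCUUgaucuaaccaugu
miR-27b-3p: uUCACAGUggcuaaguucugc
miR-27a-3p: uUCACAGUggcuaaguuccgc
miR-24-3p: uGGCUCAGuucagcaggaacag
let-7c-5p: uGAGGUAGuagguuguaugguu
miR-99b-5p: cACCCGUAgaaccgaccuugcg

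The second set holds X-linked miRNAs of a single gene cluster, shown because the cluster gave the largest part of the pool. Capitals mark the seed and, where a sequence ends in these letters, the last 4 bases UAGA.
miR-881-3p: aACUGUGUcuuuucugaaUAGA
miR-743b-3p: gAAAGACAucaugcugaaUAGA
miR-743a-3p: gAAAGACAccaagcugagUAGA
miR-741-3p: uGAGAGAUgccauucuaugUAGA
miR-880-3p: uACUCCAUccucucugagUAGA
miR-465a-3p: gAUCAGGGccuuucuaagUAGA
miR-871-3p: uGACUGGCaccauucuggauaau
miR-463-3p: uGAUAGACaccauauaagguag
miR-465c-5p: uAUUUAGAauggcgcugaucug
miR-465a-5p: uAUUUAGAauggcacugauguga
miR-465b-5p: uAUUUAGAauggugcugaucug
miR-878-5p: uAUCUAGUuggaugucaagaca
miR-470-5p: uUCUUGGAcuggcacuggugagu

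The third set holds pairs from both arms of a hairpin, or from numbered gene copies, on which the account of arm choice rests.
miR-130a-3p: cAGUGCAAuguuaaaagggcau
miR-130b-3p: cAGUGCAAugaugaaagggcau
miR-130b-5p: aCUCUUUCccuguugcacuacu
miR-335-3p: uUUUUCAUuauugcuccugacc
miR-335-5p: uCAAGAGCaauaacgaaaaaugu
miR-16-5p: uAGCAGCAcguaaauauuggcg
miR-16-1-3p: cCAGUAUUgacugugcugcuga
miR-16-2-3p: aCCAAUAUuauugugcugcuuu
miR-24-1-5p: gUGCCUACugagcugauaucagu
miR-24-2-5p: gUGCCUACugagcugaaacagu
miR-125b-5p: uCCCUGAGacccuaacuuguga
miR-125b-1-3p: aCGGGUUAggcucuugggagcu
miR-125b-2-3p: aCAAGUCAgguucuugggaccu

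The table held 10479102 reads of the untreated library, and the 531 members took 9740156 of them, which is 93.0% (called the pool below). A further 313 mouse rows had 2 to 19 reads and 102 had 0. No mouse row had exactly 1 read, so a deposited 0 may not mean that no read was seen. At the threshold, 9 members had exactly 20 reads and 5 rows just outside had 19. If 0 does mean this, 3 reads is the limit that it allows, and a mouse row at 0 could hold up to 2.86e-05% of the reads in the table. Shares are shares of sequenced reads, and brackets give exact Clopper-Pearson 95% intervals. They cover counting error only, because copies made by PCR cannot be told from separate molecules here.

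A few miRNAs made up most of the pool. The 10 most abundant held 66.4% of its reads [66.3 to 66.4], 6 members were enough for 50% and 45 for 90%. The median member had 384 reads, 18 members had at least 100000, and 159 had fewer than 100. The most abundant member was miR-881-3p, an X-linked rodent miRNA, with 2084986 reads or 21.4% of the pool. Next came miR-7a-5p, a deeply conserved miRNA of neurons and endocrine cells, with 1187531 reads or 12.2%. The third was miR-21a-5p, known for its high level in many tumours and dividing cells, with 526459 reads or 5.41%. These 3 are the markers named for this library, and together they held 39.0% of the reads.

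Below them miR-218-5p, a motor neuron miRNA, had 500656 reads, and miR-143-3p, best known from smooth muscle, had 494614. The X-linked miR-871-3p followed with 427221 reads and miR-27b-3p with 396568. A pair of names of the Sfmbt2 cluster came next, miR-467a-5p with 320066 reads and miR-467b-5p with 318904. The mature sequences of that pair overlap by at least 20 bases, and with near-equal counts the same reads appear to stand under both names. The tenth member, let-7c-5p of the let-7 family of differentiation-linked miRNAs, had 206441 reads.

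Places 11 to 20 ran from 180423 to 79898 reads. They held miR-30d-5p (180423 reads), miR-465c-5p (147743), miR-878-5p (138241), miR-99b-5p (137132) and miR-24-3p (134097). They also held miR-470-5p (122328 reads), miR-7b-5p (111046), miR-151-3p (109854), miR-743b-3p (89783) and miR-669c-5p (79898). Of these, miR-465c-5p, miR-878-5p, miR-470-5p and miR-743b-3p belong to the same X-linked cluster as miR-881-3p, and miR-669c-5p to the Sfmbt2 cluster. The 20 together held 79.2% of the pool.

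**Figure D1:**
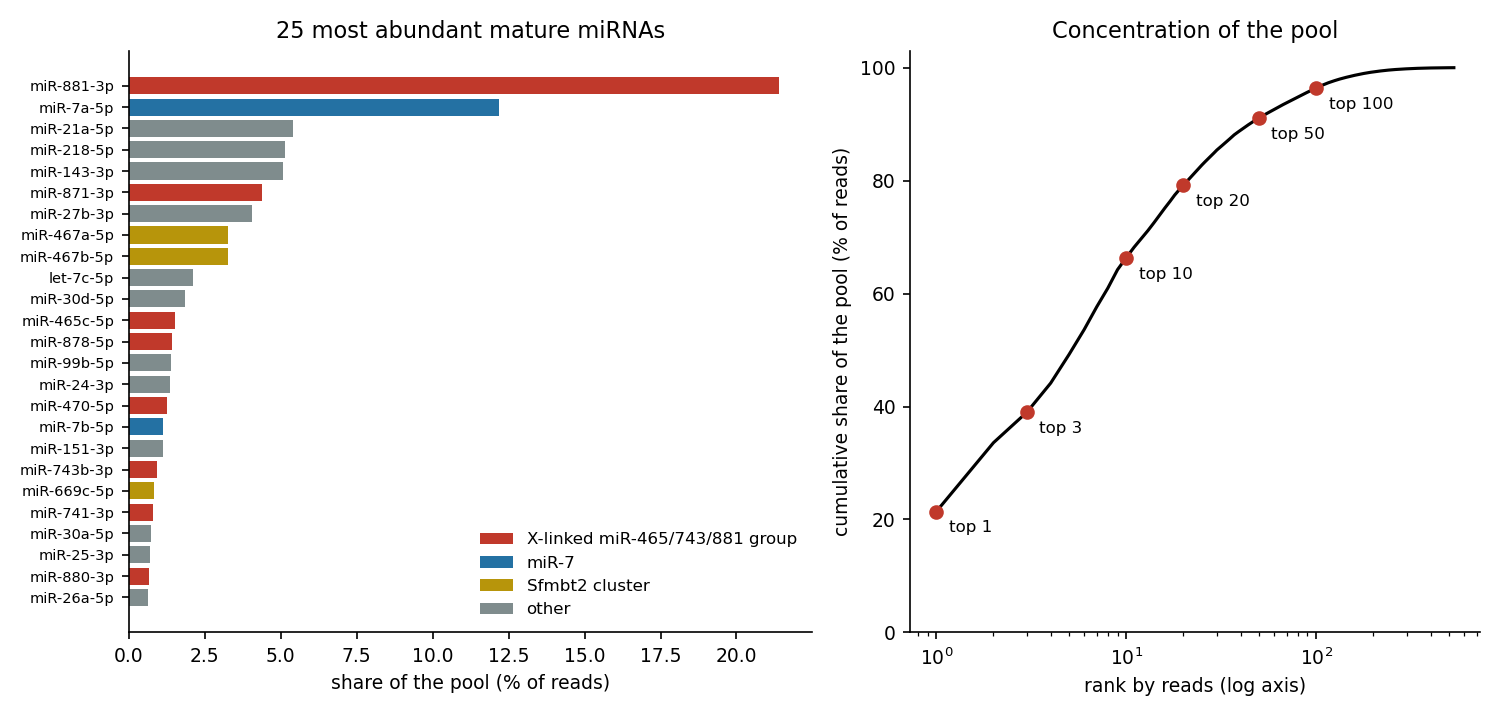
Reads of the miRNA pool of the untreated library. Left, the share of the pool (percent of reads) of the 25 most abundant mature miRNAs, coloured by group; right, the cumulative share against rank on a log axis, where the first 10 reach 66.4% and the first 50 reach 91.1%.

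The X-linked group around miR-465, miR-743 and miR-881, a rapidly evolving rodent cluster known mainly from testis, was the largest source of miRNA reads. In RefSeq (GRCm38.p6) it spans 19 miRNA genes over 62.4 kb at chrX:66776757-66839125, and its 30 members held 3415741 reads or 35.1% of the pool [35.04 to 35.10]. Of 17 names in the group 16 passed 20 reads, and miR-465d, with 11 reads, did not. The cluster was itself uneven: miR-881-3p alone had 2084986 reads, miR-871-3p had 427221, and the lowest name past the minimum, miR-742, had 102 reads on its higher arm. Between these lay miR-741-3p with 77399 reads, miR-880-3p with 65479 and miR-471-5p with 40983.

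The names miR-465a-3p, miR-465b-3p and miR-465c-3p have the same sequence and carried 37725, 37725 and 37423 reads, so these reads stand 3 times in the pool. Their 5p arms are not identical and were far apart in level, with 147743 reads for miR-465c-5p, 21699 for miR-465a-5p and 34 for miR-465b-5p. Counting such shared sequences once put the group at 36.0% of the pool.

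The 30 X-linked members had 23 different seeds, and 0 of these seeds occurred in a member outside the group. What many of them had in common lay at the other end. Of the 16 members from 3p arms, 9 ended in the bases UAGA, against 1 of 229 members from 3p arms outside the group (0.437%) and 10 of all 531 members (1.88%). The 9 were miR-881-3p, miR-743a-3p, miR-743b-3p, miR-741-3p, miR-880-3p, miR-878-3p and the identical miR-465a-3p, miR-465b-3p and miR-465c-3p. None of the 14 members from 5p arms ended so. The letters were chosen after the sequences were seen, were read on the miRNA strand at the last 4 positions only, and the genes of the cluster are related copies, so the count is a description.

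The miR-7 family held 1298864 reads or 13.3% of the pool. Its 5p members miR-7a-5p, with 1187531 reads, and miR-7b-5p, with 111046, share the seed shown above and made up almost the whole of it. The mature miR-7a-5p is made from gene copies on chromosomes 13 and 7, so its reads cannot be given to either. The 3p arms tell the copies apart: miR-7a-1-3p had 109 reads and miR-7a-2-3p had 178, so copy 2 held 62.0% of them [56.1 to 67.7]. The Mir7-1 gene lies within Hnrnpk, an RNA-binding protein gene, which stood at 178.1 FPKM (fragments scaled to gene length and library size) in the untreated total RNA library, against a median of 5.53 over 11107 genes with at least 20 estimated reads.

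The cluster inside Sfmbt2, a Polycomb gene whose intron carries a large array of rodent miRNAs, comprised 72 miRNA genes over 51.6 kb of chromosome 2 in RefSeq. Members named for it, a few of which also or only have copies elsewhere, held 896630 reads or 9.21% of the pool. The share was 5.59% when names with identical or overlapping sequences were counted once. Most of that drop came from miR-467b-5p (318904 reads), whose sequence overlaps that of miR-467a-5p but is not identical to it. Among the families and genomic groups the Sfmbt2 cluster was the third by the deposited rows. It fell behind miR-23/27/24 (6.22%) when such names were counted once. Of 76 rows 61 had at least 20 reads, led by miR-467a-5p and miR-467b-5p. After them came miR-669c-5p with 79898 reads, and miR-669a-5p and miR-669p-5p, which have the same sequence, with 36258 each. Sfmbt2 itself stood at 6.06 FPKM.

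Over the whole pool, 11 sequences were listed under more than 1 name, in 25 rows, and 7 of the 11 had exactly equal counts. If overlapping names are also assumed to share their reads, 460748 reads or 4.73% of the pool were counted more than once. The largest part was miR-467b-5p, with 318904 reads. The assumption was not tested, and some overlapping names had unlike counts, such as miR-466p-5p (1766 reads) and miR-466a-5p (145). The share of the 10 most abundant members was 68.2% with identical and overlapping names counted once.

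The miR-23/27/24 group, known from endothelium, muscle and blood, held 576965 reads or 5.92%. Most were miR-27b-3p (396568 reads) and miR-24-3p (134097), while miR-23b-3p, encoded within 1 kb of miR-27b, had 13562 (30776 with rows without a mouse prefix added). The other copy of the cluster gave less of its own sequences, with 8485 reads for miR-27a-3p and 5622 for miR-23a-3p. The 23b/27b/24-1 copy lies within Aopep, an aminopeptidase gene, which stood at 76.9 FPKM.

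The miR-21 family was almost wholly miR-21a-5p, since miR-21a-3p had 82 reads and miR-21b and miR-21c had no row. Mir21a overlaps Vmp1, an autophagy gene, at 8.61 FPKM. The let-7 and miR-98 family held 3.12% of the pool, of which let-7c-5p was the main part (206441 reads), followed by let-7i-5p (50930) and let-7g-5p (14155). The best known member, let-7a-5p, had 6405 reads and miR-98-5p had 393. Lin28a, whose protein binds let-7 precursors and blocks their processing, stood at 21.25 FPKM in the total RNA library, and Lin28b at 1.37.

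The miR-30 family, widely expressed, held 2.96% of the pool with 180423 reads for miR-30d-5p, 72180 for miR-30a-5p and 13373 for miR-30c-5p. The miR-99/100 and miR-125 group held 1.94%, led by miR-99b-5p (137132 reads), miR-100-5p (10827) and miR-125b-1-3p (9246). The miR-17-92 cluster and its paralogs, which support proliferation, held 1.76%, led by miR-25-3p (69947 reads), miR-92a-3p (49322, or 76791 with rows without a mouse prefix added) and miR-20a-5p (15487). The leading members of these 3 groups each lay far above the median member.

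Smaller groups followed. The miR-26 family held 0.669% (miR-26a-5p, 61221 reads, and miR-26b-5p, 3851), miR-101 held 0.514% (miR-101b-3p, 28819, and miR-101a-3p, 21259) and miR-148 with miR-152 held 0.367% (miR-148b-3p, 23112, miR-148a-3p, 9155, and miR-152-3p, 2537). The miR-103 and miR-107 pair held 0.272% (25643 and 877 reads) and the miR-15/16 group 0.262% (miR-16-1-3p, 7260, miR-16-5p, 6688, and miR-15b-5p, 2549). The miR-181 family held 0.155% (miR-181d-5p, 10110 reads, miR-181a-5p, 1495, and miR-181b-5p, 1403) and miR-29 held 0.106% (miR-29a-3p, 7975, and miR-29b-3p, 2144).

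The imprinted Dlk1-Dio3 cluster, a large mammalian miRNA cluster prominent in brain, gave little. Of the 75 rows named for it, miR-345 among them, 44 had at least 20 reads, and together they held 37269 reads or 0.383% of the pool. Its leading members were miR-381-3p with 15004 reads, miR-379-5p with 5076 and miR-300-3p with 2323. A further 3 families were near the floor of the pool. The pair miR-221 and miR-222 had 98 and 79 reads, miR-183, miR-182 and miR-96, known from sensory cells, had 105, 40 and 24, and the p53-linked miR-34 family had 134 reads for miR-34c-5p and 12 for miR-34a-5p.

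**Figure D2:**
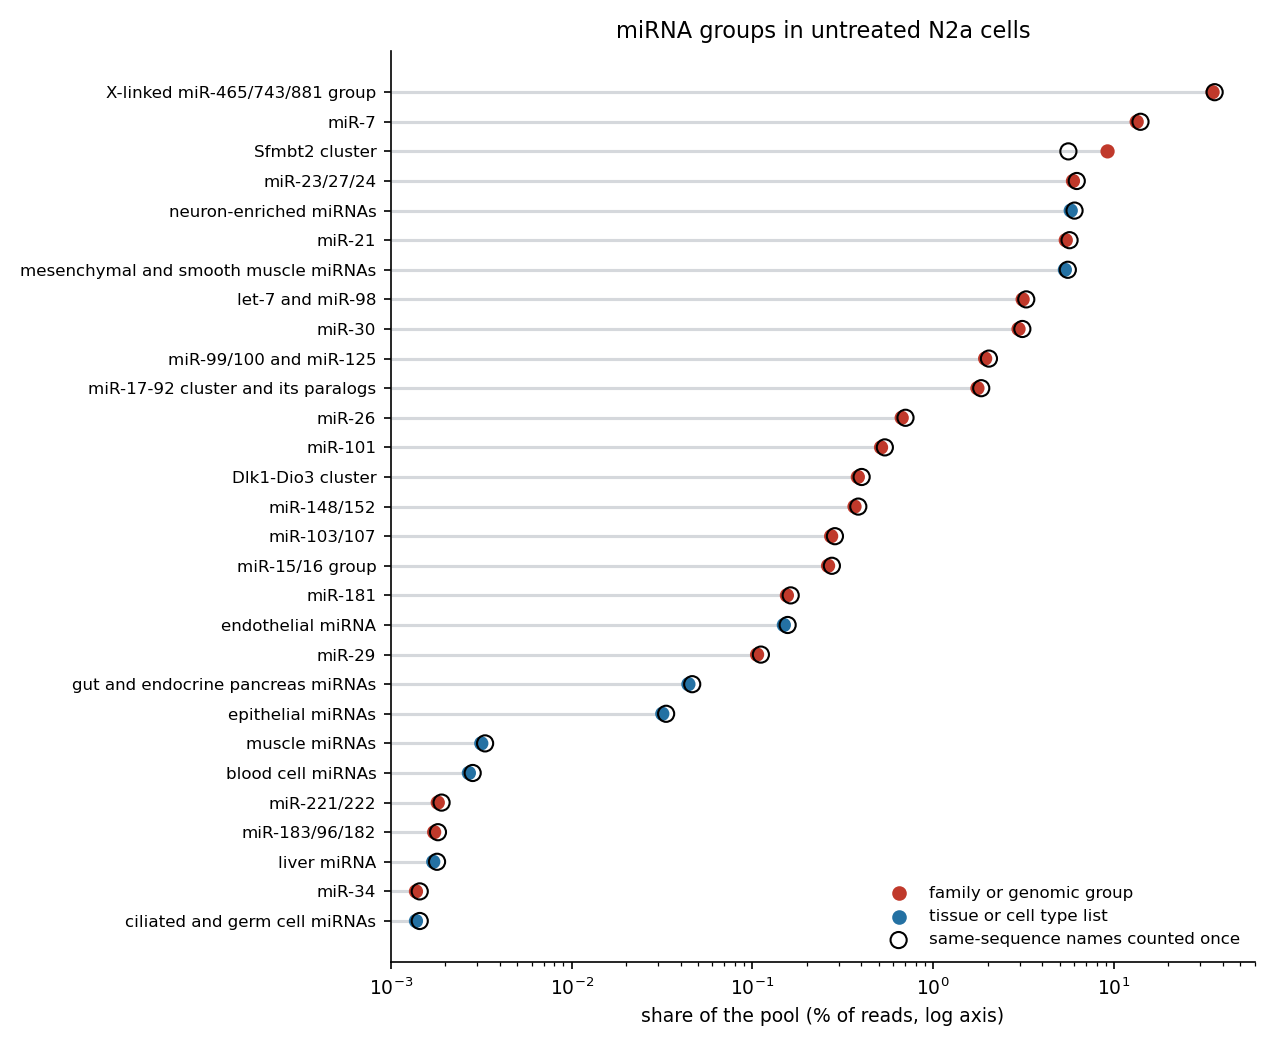
Share of the pool (percent of reads, log axis) of each family, genomic group or tissue list of miRNAs. Filled points use the rows as deposited. Open circles count once the names whose sequences are identical or overlap by at least 20 bases. The circle departs from the point mainly for the Sfmbt2 cluster, at 5.59% against 9.21%.

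By position, chromosome X carried 36.4% of the pool with 69 members, chromosome 13 carried 11.3% with 26 members and chromosome 2 carried 9.90% with 86. Chromosome 12, with the Dlk1-Dio3 cluster, held 58 members and 0.488% of the reads. Here the reads of a miRNA with several gene copies were divided evenly over the copies, which touched 54 members and 30.6% of the reads. Clusters of at least 2 genes within 10 kb on a strand supplied 66.6% of the pool.

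Neighbours in a cluster often differed widely in level. Ratios were taken in 31 clusters with at least 2 names whose counted row was placed in that cluster only. The median ratio of the highest to the lowest name was 9.52, and the ratio was at least 10 in 15. The 15 include miR-16 over miR-15a (58.55) and let-7a over let-7d (11.97), but miR-16 and let-7a also have a gene copy elsewhere. For miR-16 the row used was miR-16-1-3p (7260 reads). The 31 also include miR-486a and miR-486b (ratio 1), which have the same sequence and list the same 64 reads. The extreme was the X-linked cluster, with a ratio of 20441 between miR-881 and miR-742. The Mir143/Mir145a pair was also uneven: miR-143-3p had 494614 reads and miR-145a-5p 974, a ratio of 507.8. The ratio was 64.3 between miR-30d and miR-30b and 21.6 between miR-99b and miR-125a. It was 29.2 between miR-27b and miR-23b, but 13.7 when rows without a mouse prefix that begin with the same 18 bases were added to the mouse rows. In the Mir17-92 cluster miR-20a had 19.3 times the reads of miR-19a. Other pairs were near balance, with a ratio of 1.24 for miR-221 and miR-222 and 1.196 for miR-132 and miR-212.

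Seeds spread the pool differently from clusters. The 531 members had 414 seeds, and 348 members with a seed of their own held 62.7% of the reads. After miR-881-3p, which shares its seed with no member, came the miR-7a and miR-7b seed with 13.3% and miR-21a-5p with 5.41%. Seeds held by several members included that of 9 let-7 and miR-98 members (3.10%), that of 6 miR-30 and miR-384 members (2.86%), that of miR-27a and miR-27b (4.16%), that of miR-99a, miR-99b and miR-100 (1.56%), and that of 5 members around miR-25-3p and miR-92a-3p (1.29%). Members of the Sfmbt2 cluster split: miR-467a-5p and miR-467b-5p count as different seeds, although they appear to share reads.

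The pool was divided almost evenly between arms, with 50.2% of reads from 5p arms and 49.6% from 3p arms. Without miR-881-3p the 3p share was 35.9%. For each of 326 precursor names with at least 20 reads over both arms, an arm was called dominant when it held at least 80% of them. The 5p arm was dominant for 142 names, the 3p arm for 116 and neither for 68. Where both arms had a row (258 names) the numbers were 111, 79 and 68, and for the 75 names with at least 10000 reads they were 34, 31 and 10.

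These counts were also taken by genomic group, for names that RefSeq places wholly within it. In the Sfmbt2 cluster the 5p arm was dominant for 22 of 28 names and the 3p arm for 1. In the Dlk1-Dio3 cluster the 5p arm was dominant for 7 of 33 names and the 3p arm for 17, and in the X-linked group for 3 and 8 of 16. The lists of names behind these counts also held miR-466a, miR-297a, miR-466f and miR-466i, and miR-345, which were left out here because they are not placed or have copies elsewhere. These counts have no test, since names within a cluster are related copies and some share reads in the Sfmbt2 cluster and the X-linked group. The X-linked counts include miR-465b as 3p, and miR-465a and miR-465c with neither arm dominant, although the 3p arms of these names share reads.

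**Figure D3:**
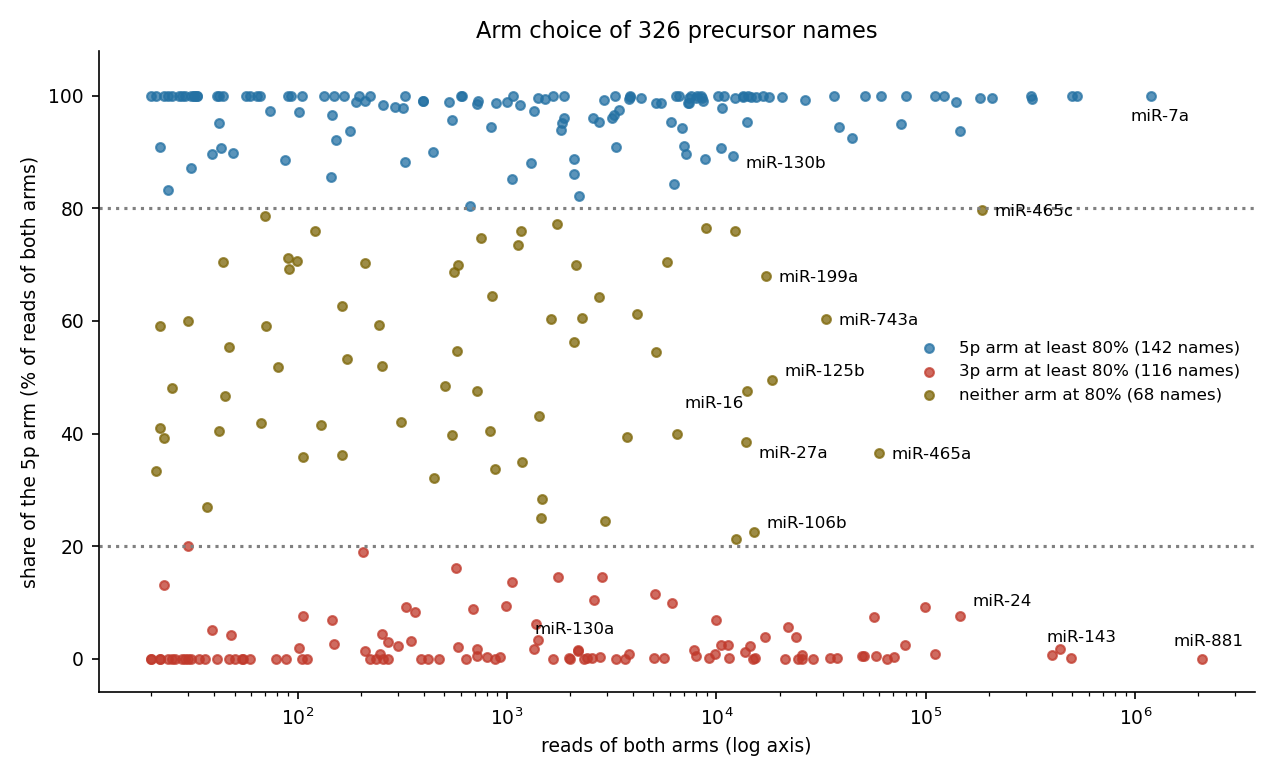
Share of the 5p arm (percent of the reads of both arms) against the reads of both arms (log axis) for 326 precursor names. Dotted lines mark 80% and 20%; 142 names lie at or above the upper line, 116 at or below the lower line and 68 between them, and miR-465c sits just under the upper line.

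The most abundant names with a dominant 5p arm were one-sided to a high degree. The 3p arms of miR-7a, miR-21a and miR-218 held 0.0242%, 0.0156% and 0.0154% of the reads of both arms. Those with a dominant 3p arm were led by miR-881, whose 5p arm had no row. Next were miR-143 with 287 reads from the 5p arm against 494614, miR-871 with 7283 against 427221, miR-27b with 2285 against 396568 and miR-24 with 10865 against 134097. The series went on with miR-151 (829 against 109854 reads), miR-743b (9113 against 89783) and miR-741 (1988 against 77399). The partner arm was thus at most 9.22% of both arms in these 8, the highest being miR-743b. With rows without a mouse prefix added, the 5p share of miR-743b was 15.6%.

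In the X-linked group the arm changed from gene to gene. The 3p arm was dominant for miR-881, miR-871, miR-743b, miR-741, miR-880, miR-465b, miR-463 and miR-883a, and the 5p arm for miR-878, miR-470 and miR-471. For miR-880 the 5p arm had 0 reads against 65479. If 0 means that no read was seen, the exact 95% interval reaches 0.00563% of both arms. For miR-470 the balance was the reverse, with 122328 reads from the 5p arm and 146 from the 3p arm. The related miR-743b and miR-743a differed, with a 5p share of 9.22% [9.04 to 9.40] and 60.3% [59.8 to 60.9], or 15.6% [15.3 to 15.8] and 60.3% with rows without a mouse prefix added. So did miR-883a and miR-883b, at 1.57% [1.31 to 1.87] and 48.5% [44.1 to 53.0]. The intervals of these pairs do not overlap, but they cover counting error only, and a difference beyond this 1 library was not tested. Adding the rows without a mouse prefix moved miR-743b outside its own interval. The 5p share of miR-465c (79.8%), miR-465a (36.5%) and miR-465b (0.0900%) cannot be read as arm choice, because their 3p arms share reads.

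**Figure D4:**
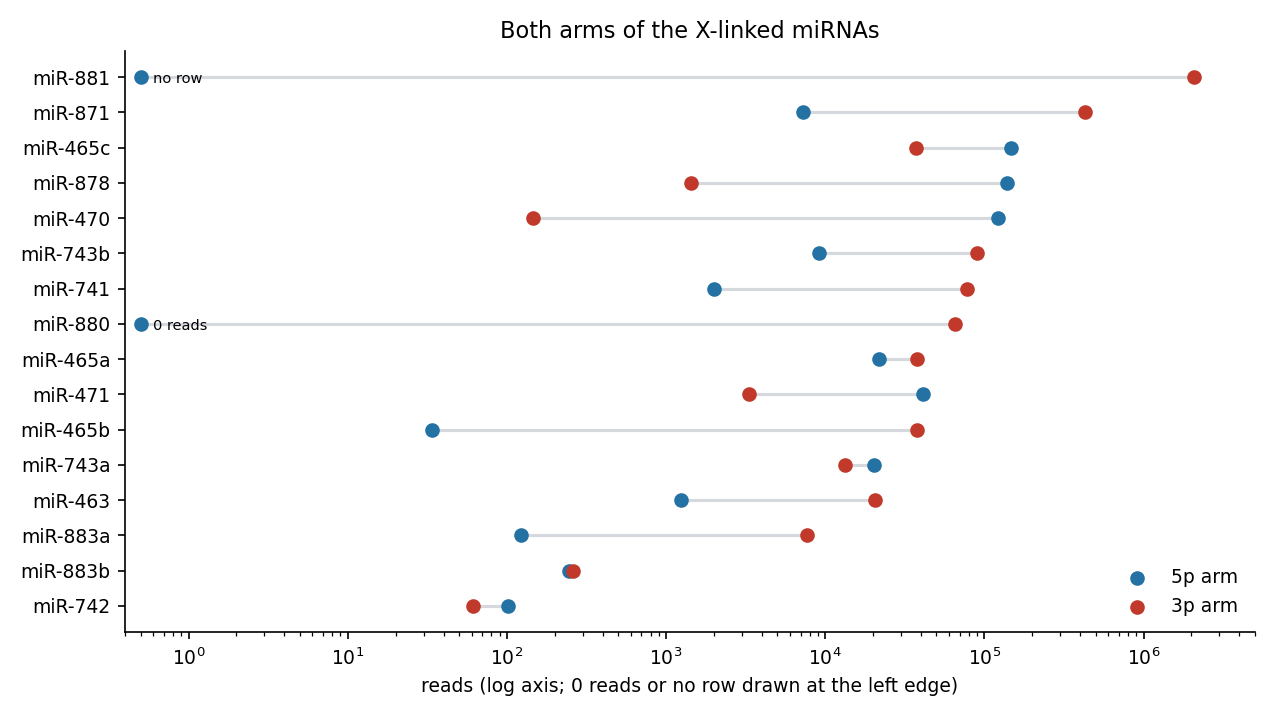
Reads (log axis) of the 5p and the 3p arm of 16 names of the X-linked group, ordered by the reads of both arms. The 5p point of miR-881 (no row) and of miR-880 (0 reads) is drawn at the left edge; the higher arm is 3p for miR-881 and miR-871 and 5p for miR-878 and miR-470.

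Among abundant names with no dominant arm, miR-743a had 20144 and 13251 reads from the 5p and 3p arm. The neural miR-125b had 9116 and 9328, and miR-16, which restrains the cell cycle, had 6688 and 7371. For miR-125b and miR-16 these sums run over numbered gene copies that share the 5p sequence. Their 3p reads came almost wholly from the first copy, so the balance need not hold for any single hairpin. For miR-106b the 3p arm was the higher, with 11704 reads against 3382, and miR-27a had 8485 against 5321. For miR-199a the 5p arm had 11737 reads and the 3p arm 5523, but its 3p arm has the same sequence as miR-199b-3p. The names miR-465c and miR-465a, with the most reads of all without a dominant arm, also share an arm sequence with others.

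Some names kept mainly the arm that is not usually taken as the guide. For miR-335, encoded in the imprinted Mest gene, the 3p arm had 52196 reads and the 5p arm 4187. For miR-708 the 3p arm had 16474 reads and the 5p arm 659. The hosts Mest and Tenm4 stood at 90.2 and 3.63 FPKM. For miR-30e and miR-30b the 5p arm held 75.9% and 54.5% of both arms, against 99.6% for miR-30d, 95.1% for miR-30a and 95.4% for miR-30c, so arm balance differed within a seed family.

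Relatives that carry the same number and different letters were compared in 37 series. In 18 of them members fell in different arm classes, and in 3 the dominant arms were opposite. Without names that share reads with another name, 31 series remained, of which 11 differed in class and 1, miR-130, had opposite arms. The clearest was miR-130: miR-130b had 10768 reads from the 5p arm and 1284 from the 3p arm, while miR-130a had 23 and 1328. Their 3p arms share the seed shown above and had similar reads, so the contrast lay in the 5p arm of miR-130b. In the miR-297 series miR-297b was 90.9% 5p and miR-297c 9.12%, but both list the same 299 reads of the 3p arm. In the miR-466 series miR-466c was 90.6% 5p and miR-466a 13.7%, and names of that series also share reads.

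Other series differed without being opposite. The 5p arm held 0.573% of both arms for miR-27b and 38.5% for miR-27a. It held 99.9% for miR-181d, 70.0% for miR-181a and 24.9% for miR-181c. It held 91.0% for miR-125a and 49.4% for miR-125b, whose 3p reads came almost wholly from the first gene copy. In contrast 8 let-7 names each had a dominant 5p arm and 7 miR-344 names each had a dominant 3p arm.

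Where a mature miRNA is made from several gene copies, the other arm can have a different sequence at each copy, and then its reads can be assigned to a copy. The files do not separate the output of a copy from the survival of this arm. For miR-125b, 9246 reads came from the 3p arm of copy 1 on chromosome 9 and 82 from that of copy 2 on chromosome 16, so copy 1 held 99.1% [98.9 to 99.3]. For miR-16, 7260 came from copy 1 on chromosome 14 and 111 from copy 2 on chromosome 3, or 98.5% [98.2 to 98.8] for copy 1. For miR-24, copy 2 on chromosome 8 gave 9853 reads and copy 1 on chromosome 13 gave 1012, or 90.7% [90.1 to 91.2] for copy 2. The neighbours had the other order: miR-27b-3p and miR-23b-3p, beside copy 1 of miR-24, had more reads than miR-27a-3p and miR-23a-3p beside copy 2. Beside copy 1 of miR-16, miR-15a-5p had 124 reads, and beside copy 2, miR-15b-5p had 2549.

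Other copies were closer. The 3p arms of miR-30c copies 1 and 2 had 184 and 464 reads, those of miR-181a had 319 and 323, and those of miR-138 had 74 and 50. For miR-181a the share of copy 1 was 49.7% [45.8 to 53.6], which includes an even split. The 5p arms of miR-344d copies 1, 2 and 3 had 14, 27 and 282 reads.

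The copies of some miRNAs lie in different host genes, which were measured in the total RNA library. For miR-218, copy 2 in Slit3 gave 64 reads of its 3p arm and copy 1 in Slit2 gave 13, which puts copy 2 at 83.1% [72.9 to 90.7]. These hosts, which encode axon guidance ligands, stood at 36.76 FPKM for Slit3 and 1.03 for Slit2. For miR-128, copy 1 in R3hdm1 gave 57 reads of its 5p arm and copy 2 in Arpp21 gave 2, which puts copy 1 at 96.6% [88.3 to 99.6]. R3hdm1 stood at 6.48 FPKM and Arpp21 at 0.06. For miR-26a, copy 2 in Ctdsp2 (9.81 FPKM) gave 76 reads of its 3p arm, and the 3p arm of copy 1 in Ctdspl (0.70 FPKM) had no row. For miR-218 and miR-128 the copy with more reads was the one with the higher host, on few reads. For miR-26a only copy 2 had a row, so the reads of the copies could not be compared. For miR-7a and miR-24 a protein-coding host was found for copy 1 only, so host levels could not be ordered. Mir7-1 in Hnrnpk (178.1 FPKM) gave 109 of 287 reads of the miR-7a 3p arms. Mir24-1 in Aopep (76.9 FPKM) gave 9.31% of the reads of the miR-24 5p arms. Hosts were looked up only for the most abundant members, which left out the copies of miR-125b and miR-16. The miRNAs set beside their hosts here were chosen after their values were seen. Not every abundant miRNA had a well expressed host: miR-99b-5p, with 137132 reads, lies in Spaca6, which had 3 estimated reads and 0.33 FPKM.

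**Figure D5:**
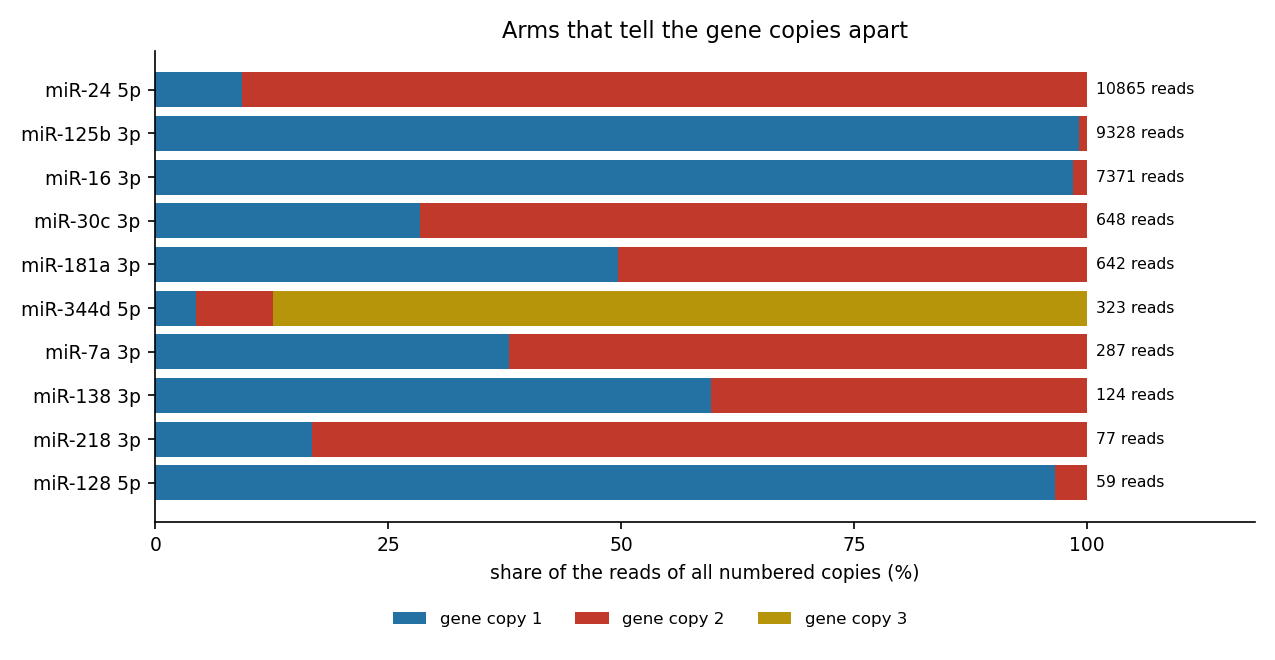
Share of each numbered gene copy (percent of the reads of all numbered copies) for 10 miRNAs whose named arm differs in sequence between copies; totals are at the right. Copy 1 holds 99.1% for miR-125b and 98.5% for miR-16, copy 2 holds 90.7% for miR-24, and miR-181a is split almost evenly.

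The first base of a miRNA matters because Argonaute proteins bind a 5′ U or A most readily. Members that begin with U made up 44.6% of the 531 names and 62.1% of the reads, and those that begin with A 26.7% and 25.8%. The leading member miR-881-3p begins with A, and without it U held 79.0% of the reads. Among precursor names with a row for both arms, the dominant arm began with U more often than its partner. This was so for 58.6% of 111 dominant 5p arms against 23.4% of their 3p partners, and for 57.0% of 79 dominant 3p arms against 26.6% of their 5p partners. The most common length was 22 nt, in 57.1% of members and 54.9% of reads.

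The miRNAs best known from neurons were present unequally. Of 15 names in that list 13 had at least 20 reads, and the list held 5.76% of the pool, of which miR-218-5p alone was 5.14%. Next were miR-128-3p with 34865 reads and miR-9-5p, a miRNA of neural progenitors, with 14514. A hallmark of mature neurons, miR-124, had 76 reads from its 3p arm and 54 from its 5p arm. Likewise miR-138-5p had 3045 reads, miR-132-5p 1374, miR-137-3p 900 and miR-153-3p 628, while miR-135a-5p had 3 and miR-383-5p 2. Of the neural miRNAs, miR-218, miR-128 and miR-9 thus lay far above the median member and miR-124 below it.

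Pluripotency miRNAs were not detected above the minimum. Of 12 names in the miR-290 and miR-302 groups 0 passed 20 reads: 8 had no row, miR-292a-5p and miR-294-3p had 0 reads, and miR-293-5p and miR-291b-5p had 6 and 3. Muscle miRNAs were close to the floor, with 197 reads for miR-499-5p, 111 for miR-1a-3p, 3 for miR-206-3p and 0 for miR-133a-3p. The 3 remaining names, miR-133b, miR-208a and miR-208b, had no row. In the tissue lists a name without a row is one without a mouse row, and rows without a mouse prefix were not counted toward it. Blood cell miRNAs summed to 263 reads, with 181 for miR-451a of red cells, 37 for miR-144-3p and 24 for miR-142a-3p. Below the minimum were miR-150-5p with 16 reads, miR-155-5p with 12 and miR-223-3p with 2.

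Lists of other tissues were mostly low, with exceptions. Epithelial miRNAs summed to 3089 reads, of which miR-203-3p had 2760, while miR-200c-3p had 221, miR-141-3p 55, miR-205-5p 9 and miR-429-3p 3. Those of gut and endocrine pancreas summed to 4307 reads, with 3291 for miR-192-5p (7987 with rows without a mouse prefix added), 523 for miR-194-5p and 473 for miR-375-3p, and miR-216a and miR-217 had no row. The liver miRNA miR-122-5p had 167 reads. Of the ciliated and germ cell list miR-34c-5p passed with 134 reads, while miR-449a-5p had 7, miR-34b-3p 6 and miR-34b-5p 3. That list held only miR-34 and miR-449 names. The X-linked group, known mainly from testis, was not in it and held 35.1% of the pool.

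The exceptions were found in lists of mesenchyme and endothelium. Mesenchymal and smooth muscle miRNAs held 5.34% of the pool, nearly all of it miR-143-3p. Its cluster partner miR-145a-5p, which defines smooth muscle as much as miR-143 does, had 974 reads, and the fibroblast miRNAs miR-199a-5p and miR-214-5p had 11737 and 408. The endothelial miR-126a-3p had 14206 reads, and its host Egfl7 stood at 105.2 FPKM. In a single bulk library, a few cells with much of a miRNA and many cells with little of it cannot be told apart.

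Of the abundant members outside all of these lists, miR-151-3p had 109854 reads, miR-344d-3p 57214, miR-335-3p 52196, miR-378a-3p 50228 and miR-186-5p 26137. Further ones were miR-615-3p, from the Hoxc cluster, with 25511 reads, and miR-184-3p with 24533. The lists of families and genomic groups covered 248 members and 81.4% of the reads, and the remaining 283 members held 18.6%. Those 283 include members of the tissue lists, such as miR-218-5p and miR-143-3p.

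The genes that make and load miRNAs were read in the untreated total RNA library, where the quartiles over genes with at least 20 estimated reads were 1.97, 5.53 and 17.35 FPKM. Of the microprocessor, Drosha stood at 16.94 and Dgcr8 at 2.71 FPKM. Xpo5, the exporter, stood at 15.79 and Dicer1 at 5.47, with 41.69 for its partner Tarbp2 and 5.92 for Prkra. Ago2, the Argonaute that can cut targets, was the highest of its family at 13.57 FPKM, followed by Ago1 (2.72), Ago3 (1.79) and Ago4 (0.11, 17 estimated reads). The silencing scaffolds Tnrc6a, Tnrc6b and Tnrc6c stood at 1.87, 0.74 and 4.34.

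Of the cofactors, Khsrp, a binder of precursor loops, stood at 70.67 FPKM, and the helicases Ddx5 and Ddx17 at 48.08 and 34.37. Zswim8, which serves the decay of miRNAs directed by their targets, stood at 22.99. The uridyl transferases Tut4 and Tut7, which tail let-7 precursors bound by Lin28, stood at 6.61 and 0.94, and Dis3l2, the nuclease that removes such precursors, at 7.29. Thus 4 of these genes lay above the upper quartile besides Tarbp2 and Lin28a, and Ago3, Ago4, Tnrc6a, Tnrc6b, Lin28b and Tut7 lay below the lower.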

How the data were processed

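Small RNA was read from 1 untreated N2a library, and host and processing genes from 1 untreated total RNA library. The authors deposited whole read counts and TPM values per small RNA, in which 0 is written as 0.01 and which imply a library total of 10914338 tags. They also deposited estimated counts (expected counts) and FPKM values per gene, per the file headers. The tools named, per the submitters' processing notes, are StringTie, Bowtie2 and fastp 0.18.0, with build mm9. For miRNA counting, the program and miRBase release were not given in the sources used here. Over genes, the estimated counts summed to 13972460.

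From the counts, shares, arm balances and exact Clopper-Pearson 95% intervals were computed (Python 3.11.15, SciPy 1.17.1). Arms were summed per precursor name, numbered copies included, and a listed arm whose partner had no row counted as the whole. An arm was dominant at 80%. The arm step was run on simulated reads whose arm shares lay well away from the 80% threshold. That run says nothing about names near the threshold or about arms that share reads. Sequences and positions come from RefSeq (GRCm38.p6): 429 members matched by name, each with an identical sequence, and 529 were placed on miRNA genes. Genes within 10 kb on a strand formed a cluster. With 1 library per group no test was made.

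The members and lists were chosen with earlier results of these data known. Named miRNAs are the 20 most abundant, the 3 markers, up to 3 leading members of each list, the leading names with a 3p or no dominant arm, series that differ in arm, tissue miRNAs under 20 reads and the processing genes. Names outside this rule were chosen after their values were seen.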

Additional observations from a re-analysis of the deposited data

How the results depend on the processing

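Alternatives changed the denominator, the minimum, the arm threshold, the cluster distance and the seed length. Those that count shared sequences once, add rows without a mouse prefix or use the implied library total were chosen after seeing the data. So were those that leave out miR-881-3p, names with shared reads or names placed elsewhere. Shared sequences are those that are identical or overlap by at least 20 bases. The 10 most abundant members held 66.36% of the pool. They held 61.68% of all rows of the table, 66.41% with a minimum of 100 reads, 68.16% with shared sequences counted once, 65.77% with rows without prefix added and 59.22% of the implied library total. The X-linked group held 35.07%. It held 32.6% of all rows, 36.0% with shared sequences counted once, 34.39% with rows without prefix added and 31.3% of the library total, and its genomic cluster held 36.0% with shared sequences counted once. The X-linked group and miR-7 stayed first and second under each of the 6 alternatives run for the lists.

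The number of names with a dominant 3p arm was 184 with a minimum of 1 read, against 116, since more names enter. With a threshold of 67%, 42 names had no dominant arm, against 68. The share of reads that begin with U was 78.97% without miR-881-3p and 65.02% with shared sequences counted once, against 62.07%. With each miRNA counted once, U began 44.63% of the members. Of the other values (single lists, seed families, clusters and miR-881-3p), 122 moved beyond their counting interval and 115 did not.

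No paired analysis was possible because each group had 1 library. Depth limits the minor arms and copies under about 100 reads, and counting intervals leave out the error of library preparation, which 1 library cannot show.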

Other observations

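The table also held 802 rows without the mouse prefix, with 723710 reads. Of these, 347 rows with 313572 reads (43.3%) began with the same 18 bases as a mouse row. For most of the abundant members such a row was small beside the mouse row, at 0.807% for miR-881-3p, 4.63% for miR-21a-5p, 6.54% for miR-27b-3p and 13.4% for miR-218-5p. It was large for miR-92a-3p (27467 reads against 49322), miR-743b-5p (7422 against 9113) and miR-23b-3p, where 16829 reads stood outside the mouse row and 13562 in it. Adding such rows raised 20 members by more than 1.5 times. Their reads enter only the values said to add them. The first 18 bases do not always tell relatives apart.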
